A study of Mus musculus with 56 samples.

Results

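Levels of 10 genes that earlier work had established as direct targets of the liver microRNA miR-122 were followed in 14 mouse livers by RNA-seq. The genes are Aldoa, Slc7a1, Ndrg3, Tmed3, Ccng1, P4ha1, Gys1, Cd320, Bckdk and Cux1. They were chosen by name, as known targets, out of 21888 gene symbols in the expression table, and each has 1 row there. All mice had the 129Sv/J background. The study asked what follows when miR-122 is removed from the adult liver. In 11 of the mice the miR-122 gene was flanked by loxP sites. Of these, 3 mice had received no vector (day 0), and the others were killed 21 days (3 mice), 45 days (3 mice), 100 days (1 mouse) or 200 days (1 mouse) after Cre recombinase was delivered. The Cre was carried by an adeno-associated virus of serotype 8 and driven by the Ef1a promoter, which is active in many cell types, and was given by tail vein. The last 3 mice carried a germline knockout of miR-122. For these no vector was named, so they lacked miR-122 from conception and differed from the day 0 mice in line as well as in the microRNA. No vector without Cre was given to the day 0 mice, so Cre, the vector and the loss of miR-122 cannot be told apart in these comparisons. Each library is 1 mouse. The sex and the ages of the mice were not given.

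MicroRNAs guide Argonaute proteins to partly matching sites, mostly in the 3′ untranslated region (3′ UTR) of messenger RNAs, and lower the stability and the translation of those messages. miR-122 is the most abundant microRNA of hepatocytes and is nearly absent from most other cell types. A direct target would therefore be held down in normal hepatocytes, and its messenger RNA is free of that brake where miR-122 is lost.

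The 10 genes lie on 7 chromosomes of the mm9 mouse genome. Aldoa (chr7:133938748-133943961, minus strand), Gys1 (chr7:52690209-52711987, plus strand) and Bckdk (chr7:135047587-135053178, plus strand) share chromosome 7. Slc7a1 (chr5:149138986-149211480, minus strand) and Cux1 (chr5:136724005-137043301, minus strand) share chromosome 5. Ndrg3 is at chr2:156753078-156817847 (minus strand), Tmed3 at chr9:89594041-89599881 (minus strand), P4ha1 at chr10:58786044-58836052 (plus strand), Ccng1 at chr11:40562054-40568788 (minus strand) and Cd320 at chr17:33980036-33986719 (plus strand). The longest annotated 3′ UTR runs from 185 bases in Aldoa to 5030 bases in Slc7a1, with a median of 1349 bases over the 10 genes and of 893 bases over 19915 genes with an annotated 3′ UTR.

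miR-122 itself was measured in small RNA libraries that carry the same day and letter labels as 11 of the 14 livers. It made up 73.3%, 59.2% and 66.7% of microRNA reads in the day 0 mice A, B and C, from 618529 to 808467 reads per library. At day 21 it made up 12.5%, 13.2% and 8.22%, and at day 45 0.908%, 0.383% and 1.23%. The day 100 mouse had 4.46% (95% Wilson interval 4.40 to 4.52%) and the day 200 mouse 19.1% (18.99 to 19.17%). The share was therefore lowest at day 45 in these libraries, and higher in both later mice than in any day 45 mouse. The intervals cover counting error only, since the reads carry no molecular identifiers. No small RNA library of the germline knockout was used here.

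**Figure D1:**
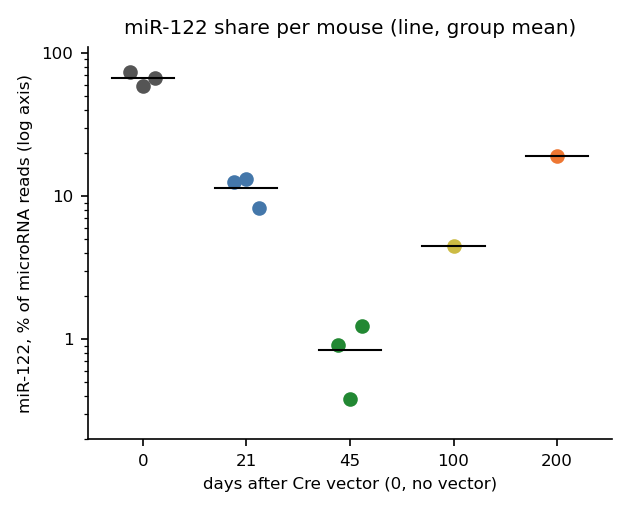
Share of microRNA reads that were miR-122 in each mouse (percent, log axis) by day after the Cre vector. Each point is 1 mouse and each line a group mean. The 3 day 45 mice lie between 0.383% and 1.23%, below every other mouse.

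The RNA-seq values are FPKM, the number of sequenced fragments scaled to both transcript length and library size, so that levels can be compared between genes. Read counts were not used here. The steps between the lowest values give a scaled library size in units of 1e6 fragments. It was about 46 to 52 at day 0, 33 to 49 at days 21 to 200 and 23 to 29 in the germline knockout. Because the values were scaled to the upper quartile, this size need not equal the number of fragments sequenced. Knockout libraries A and B stood apart from the other 12. Among tested genes with a transcript GC content (share of G and C) under 44.5%, their median log2 difference from the day 0 mean was -0.98 and -0.74, and among those over 55.9% it was 0.72 and 0.71. Knockout library C had 0.09 and -0.01. Knockout results of the targets are therefore given with all 3 libraries and with library C alone. A knockout group of library C alone has no spread of its own, so its p-values assume that it varies like the other groups. The hepatocyte markers were the highest of the marker sets in every library, although Alb, which encodes albumin, is listed at 0 in every library.

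**Figure D2:**
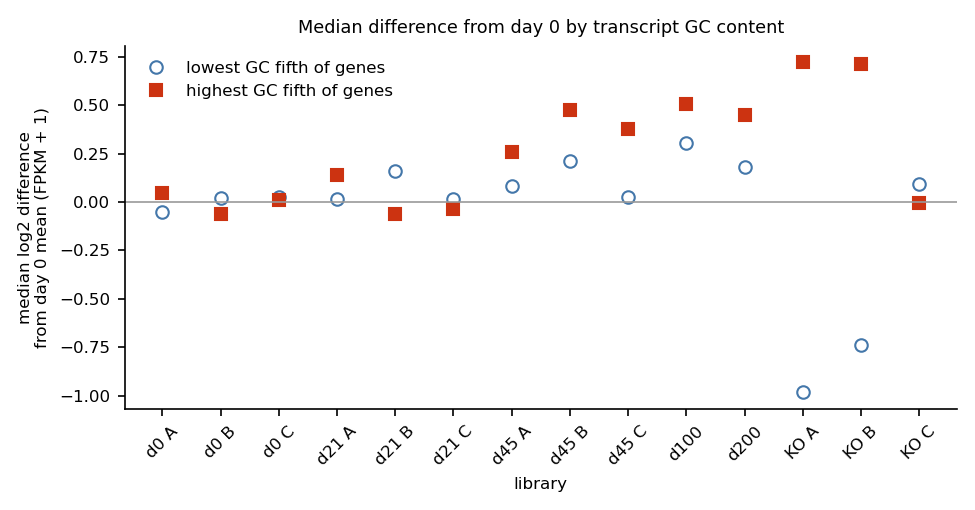
Median log2 difference from the day 0 mean, on log2(FPKM + 1), of the tested genes with transcript GC content under 44.5% (open circles) and over 55.9% (filled squares), for each library. In knockout libraries A and B the medians lie at -0.98 and 0.72, and at -0.74 and 0.71, while in knockout library C they lie at 0.09 and -0.01.

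Metabolic enzymes and their regulators were represented by Aldoa, Bckdk and Gys1. Aldoa encodes aldolase A, the form of this glycolytic enzyme known from muscle. It was measured at 69.4, 73.1 and 62.1 FPKM in the day 0 mice, at 165, 153 and 211 at day 21, and at 257, 255 and 397 at day 45. It was at 280 in the day 100 mouse, 274 in the day 200 mouse, and 500, 440 and 245 in the germline knockout mice A, B and C. Every mouse without miR-122 or given Cre was above every day 0 mouse. Mean levels were 68.2 ± 5.61 (SD, n = 3) at day 0, 176 ± 30.4 at day 21 and 303 ± 81.8 at day 45. Compared with day 0, the change on the log2(FPKM + 1) scale was 1.35 ± 0.26 (SE; limma adjusted p = 0.0108) at day 21. It was 2.11 ± 0.26 (adjusted p = 0.000403) at day 45 and 2.01 ± 0.29 (adjusted p = 0.0004) in the late mice, which are those of days 100 and 200 as 1 group. At day 21 the adjusted p was 0.0557 without mouse C of that day. Aldoa has near-identical processed copies in the mouse genome (Aldoart1 and Aldoart2), between which reads could be split, which was not tested. In the germline knockout the difference was 2.45 ± 0.26 (adjusted p = 7.28e-05), and 1.83 (adjusted p = 0.00383) with library C alone. In bulk tissue, a change in the mix of cells and a change in RNA per cell cannot be told apart, here or in any result that follows.

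Bckdk encodes the kinase that switches off the branched-chain ketoacid dehydrogenase, the committed step in the breakdown of leucine, isoleucine and valine. Its levels were 5.20, 5.25 and 5.90 FPKM at day 0, 15.5, 13.0 and 13.5 at day 21, and 17.1, 16.3 and 19.4 at day 45. The day 100 and day 200 mice had 18.3 and 17.8, and the germline knockout mice 30.2, 26.3 and 16.7. No mouse outside day 0 overlapped with day 0. The log2 difference from day 0 was 1.22 ± 0.19 (adjusted p = 0.00407) at day 21, 1.53 ± 0.19 (adjusted p = 0.000362) at day 45 and 1.94 ± 0.19 (adjusted p = 3.63e-05) in the germline knockout, or 1.46 (adjusted p = 0.000586) with library C alone.

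Gys1 encodes the muscle form of glycogen synthase, whereas the liver form is Gys2. It was low, at 0.757, 0.639 and 0.654 FPKM at day 0, and passed the minimum mean of 1 FPKM used for testing only through the other groups. It was at 2.05, 1.21 and 0.986 at day 21, at 2.60, 2.92 and 2.23 at day 45, and at 3.96 and 3.18 at days 100 and 200. The germline knockout mice had 4.97, 4.23 and 3.05. The groups did not overlap with day 0, but the day 21 difference of 0.50 ± 0.19 did not pass the test (adjusted p = 0.135), though it did after correction for GC content (0.45, adjusted p = 0.0373), with mouse A of that day at 2.05 FPKM well above the other mice of its group. The differences of 1.09 ± 0.19 at day 45 (adjusted p = 0.00162) and 1.58 ± 0.19 in the germline knockout (adjusted p = 0.000166, or 1.27 and 0.012 with library C alone) passed.

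Uptake of nutrients was represented by Slc7a1 and Cd320. Slc7a1 encodes CAT-1, a transporter of the cationic amino acids arginine, lysine and ornithine. It was the lowest of the 10 genes, at 0.138, 0.175 and 0.241 FPKM at day 0. It reached 0.528, 0.566 and 0.833 at day 21 and 0.745, 1.62 and 0.886 at day 45, then 2.35 and 1.68 in the late mice. The germline knockout mice had 1.43, 1.68 and 0.939. No later mouse overlapped with day 0, and the ratio of the mean levels to day 0 was 3.48 at day 21, 5.86 at day 45 and 7.30 in the germline knockout. Its mean over the 14 libraries was under the minimum, so it was not among the genes tested. An exact permutation test (two-sided) gave p = 0.1 for each group of 3 against day 0, the smallest that 3 against 3 can give. In a fit over all genes with no minimum, the log2 difference from day 0 was 0.47 ± 0.17 at day 21 (adjusted p = 0.195), 0.79 ± 0.17 at day 45 (adjusted p = 0.0118) and 0.98 ± 0.17 in the germline knockout (adjusted p = 0.00611), the last being 0.71 (adjusted p = 0.167) with library C alone. These differences are understated for so low a gene, because 1 FPKM was added before the logarithm. With 0.1 FPKM added instead, the day 21 difference was 1.38 (adjusted p = 0.0394).

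Cd320 encodes the receptor that takes up vitamin B12 bound to transcobalamin. It was at 3.197, 1.65 and 2.53 FPKM at day 0, at 6.11, 5.17 and 4.54 at day 21 and at 9.68, 9.31 and 7.68 at day 45. The late mice had 11.1 and 10.2, and the germline knockout mice 19.5, 15.4 and 8.20. The groups at days 0, 21 and 45 did not overlap with one another. The difference from day 0 missed the threshold at day 21 (0.88 ± 0.26, adjusted p = 0.0618, but between 0.0287 and 0.0489 under 4 alternatives) and passed it at day 45 (1.53 ± 0.26, adjusted p = 0.00152) and in the germline knockout (2.10 ± 0.26, adjusted p = 0.000219, or 1.44 and 0.00836 with library C alone).

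Tmed3 and P4ha1 act in the secretory pathway. Tmed3 encodes a member of the p24 family, which sorts cargo between the endoplasmic reticulum and the Golgi. Its levels were 21.6, 23.9 and 20.9 FPKM at day 0, 65.0, 55.8 and 57.5 at day 21, 73.8, 69.0 and 87.3 at day 45, and 86.3 and 76.5 in the late mice. The germline knockout mice had 143, 115 and 75.9. Every group lay above day 0 without overlap. The log2 difference was 1.38 ± 0.20 (adjusted p = 0.00384) at day 21, 1.74 ± 0.20 (adjusted p = 0.000292) at day 45 and 2.23 ± 0.20 (adjusted p = 2.89e-05) in the germline knockout, or 1.73 (adjusted p = 0.000516) with library C alone.

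P4ha1 encodes a catalytic subunit of prolyl 4-hydroxylase, which modifies collagen as it is made. It was at 3.16, 4.22 and 3.59 FPKM at day 0, at 6.20, 6.57 and 6.49 at day 21 and at 6.66, 7.50 and 8.69 at day 45. The late mice had 7.84 and 6.08, and the germline knockout mice 5.04, 4.42 and 5.82. All the later mice were above day 0, with the smallest gap in knockout mouse B. P4ha1 rose by 0.68 ± 0.15 (adjusted p = 0.0182) at day 21, a call that was lost without day 0 mouse A (adjusted p = 0.0775) and without 3 other libraries in turn, and by 0.89 ± 0.15 (adjusted p = 0.00149) at day 45. The germline knockout difference of 0.39 ± 0.15 did not pass (adjusted p = 0.0617), nor did that of library C alone (0.56, adjusted p = 0.11). After correction for GC content it was 0.69 (adjusted p = 0.0037).

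Ndrg3, Cux1 and Ccng1 are regulators of growth and transcription. Ndrg3, of the N-myc downstream regulated gene family, was at 7.89, 10.0 and 8.57 FPKM at day 0, 22.1, 19.2 and 19.7 at day 21, and 21.4, 20.9 and 28.6 at day 45. It was at 19.7 and 15.6 in the late mice and at 23.9, 21.8 and 29.8 in the germline knockout. It rose by 1.12 ± 0.17 (adjusted p = 0.00407) at day 21, 1.32 ± 0.17 (adjusted p = 0.000478) at day 45 and 1.41 ± 0.17 (adjusted p = 0.000188) in the germline knockout, or 1.66 (adjusted p = 0.002) with library C alone. Unlike Aldoa, Tmed3 and Bckdk, it was not higher in knockout libraries A and B than in C.

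Cux1, a homeobox transcription factor, had the smallest difference from day 0 of the 9 tested targets at days 21 and 45 and in the late mice. It was at 5.34, 8.56 and 5.98 FPKM at day 0, at 9.50, 7.50 and 8.79 at day 21 and at 7.95, 9.23 and 10.2 at day 45, so day 0 mouse B overlapped with both groups. The late mice had 11.2 and 9.59 and the germline knockout mice 10.7, 8.98 and 9.28. The difference from day 0 did not pass at day 21 (0.35 ± 0.17, adjusted p = 0.262) or day 45 (0.43 ± 0.17, adjusted p = 0.0852). It passed in the late mice (0.60 ± 0.19, adjusted p = 0.0303) and in the germline knockout (0.50 ± 0.17, adjusted p = 0.0397). Both calls were lost under several alternatives, including without day 0 mouse A (adjusted p = 0.104 and 0.13) and after correction for GC content (differences of 0.17 and 0.09, adjusted p = 0.576 and 0.71). With knockout library C alone the difference was 0.45 (adjusted p = 0.277).

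Ccng1 encodes cyclin G1, a gene also induced by the tumour suppressor p53. It was at 12.5, 12.2 and 13.9 FPKM at day 0, at 61.9, 89.4 and 72.5 at day 21 and at 109, 91.6 and 90.7 at day 45. It was at 43.3 in the day 100 mouse and 30.1 in the day 200 mouse, below every mouse of days 21 and 45 and above every day 0 mouse. The germline knockout mice had 8.27, 9.32 and 33.5, with A and B below day 0 and C above it. Ccng1 rose by 2.43 ± 0.38 (adjusted p = 0.00449) at day 21 and by 2.82 ± 0.38 (adjusted p = 0.000584) at day 45, the largest of the tested targets at both times and higher than 99.67% of all tested genes. In the germline knockout the difference from day 0 was 0.10 ± 0.38 (adjusted p = 0.846). It was -0.50 (adjusted p = 0.0305) without library C and 1.32 (adjusted p = 0.012) with library C alone, and 0.69 (adjusted p = 0.022) over all 3 libraries after correction for GC content. The direction and the call of Ccng1 in the germline knockout thus depended on which libraries were used and on that correction. Its transcript has 40.8% G and C, lower than all but 6.1% of tested genes and the lowest of the 10 targets.

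**Figure D3:**
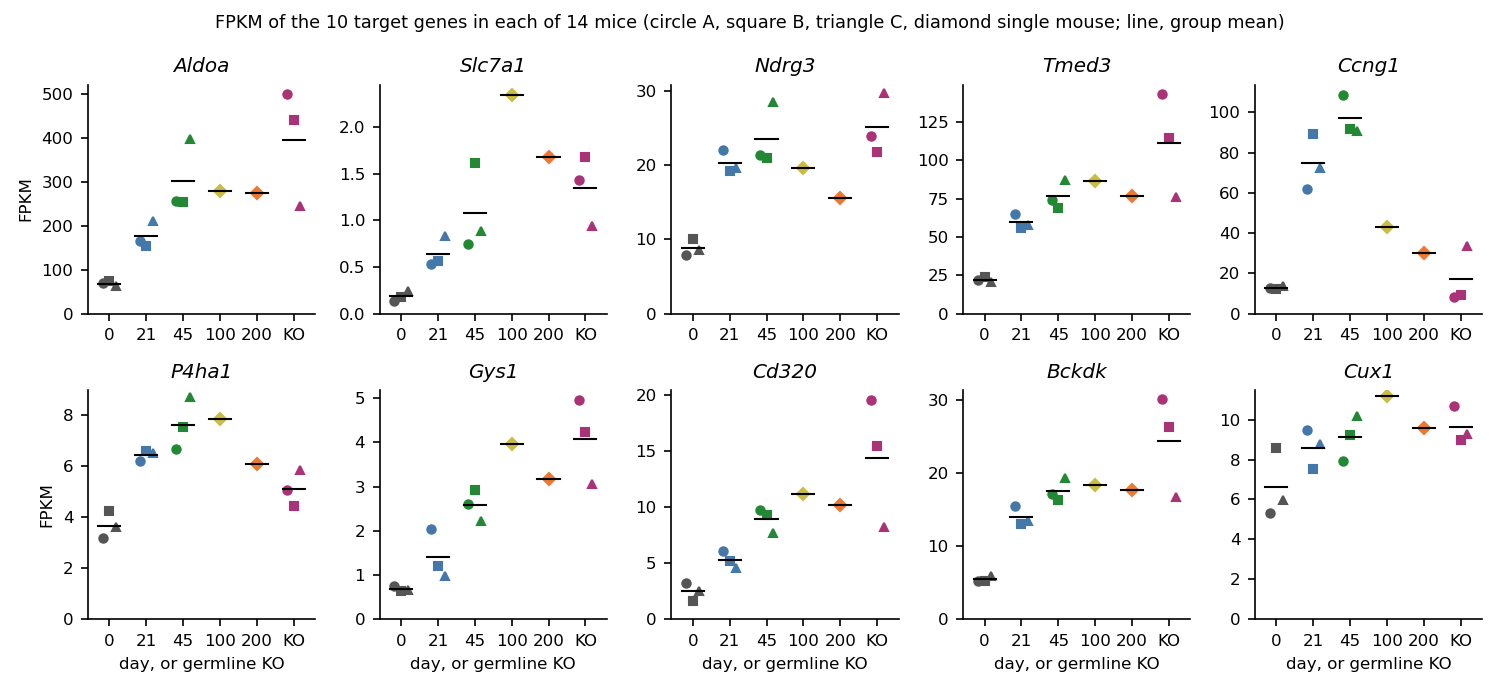
FPKM of each of the 10 target genes in each mouse at days 0, 21, 45, 100 and 200 and in the germline knockout (KO). Circles, squares and triangles are mice A, B and C, diamonds single mice, and lines group means. Points of every later mouse lie above day 0 except for Cux1 and for Ccng1, whose knockout mice are at 8.27, 9.32 and 33.5 FPKM beside 90.7 to 109 at day 45.

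Counted together, 6 of the 9 tested targets were called higher at day 21 than at day 0, when 6.2% of 11354 tested genes were called higher. The 3 not called were Gys1, Cd320 and Cux1. At day 45, 8 of 9 were called higher, all but Cux1, against 23.7% of tested genes. In the late mice all 9 were called, against 28.4%, and without the day 100 mouse 5 were, against 13.7%, the calls of Ndrg3, Ccng1, P4ha1 and Cux1 being lost. Differences in the late mice ran from 0.60 for Cux1 to 2.01 for Aldoa, with Ccng1 at 1.42 ± 0.43 (adjusted p = 0.0237). In the germline knockout 7 of 9 were called higher, all but Ccng1 and P4ha1, against 19.3%. After correction for GC content 8 of 9 were, with Ccng1 and P4ha1 in and Cux1 out, and 2104 of the 11147 genes with a GC content were called higher and 1835 lower. With library C alone 7 of 9 were called, with Ccng1 in and Cux1 out, against 4.03% of tested genes. Without Gys1, which passed the minimum only through the groups where it is high, the counts were 6 of 8 at day 21, 7 of 8 at day 45, 8 of 8 in the late mice and 6 of 8 in the germline knockout. The day 21 count reached 7, through Cd320, with 0.1 FPKM added, when 906 genes were called higher and 173 lower. It was also 7, through Cd320, with only those 2 groups fitted, when 1401 genes were called higher and 373 lower. After correction for GC content it was 8, through Cd320 and Gys1, when 1006 genes were called higher and 596 lower. No target was called lower than day 0 in these comparisons, where 1.42%, 2.99%, 3.21% and 14.5% of tested genes were. The median log2 difference of the 9 targets was 1.12 at day 21, 1.53 at day 45, 1.44 in the late mice and 1.58 in the germline knockout, beside 0.06, 0.20, 0.31 and 0.02 over all tested genes. Without Gys1 the medians of the targets were 1.17, 1.53, 1.49 and 1.67. The median of all genes was above 0.1 at day 45 and in the late mice. With each library centred on that median, 8 of 9 targets stayed called higher at day 45, when 15.1% of tested genes were called higher and 6.38% lower, and 6 of 9 in the late mice, beside 16.3% and 7.93%. The comparisons with day 0 share the 3 day 0 mice.

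Counted by mice in place of the test, every day 21 mouse was above every day 0 mouse for 8 of the 9 tested targets, all but Cux1, and for 25.2% of tested genes. The same 8 were above without overlap at day 45, where 40.5% of tested genes were. All 9 were above in the late mice, against 52.9%, and 8 in the germline knockout, all but Ccng1, against 21.1%. Without Gys1 the counts were 7 of 8 at day 21, 7 at day 45, 8 in the late mice and 7 in the germline knockout. No target lay below every day 0 mouse in any of these groups, where 13.1%, 9.37%, 11.6% and 13.3% of tested genes did.

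**Figure D4:**
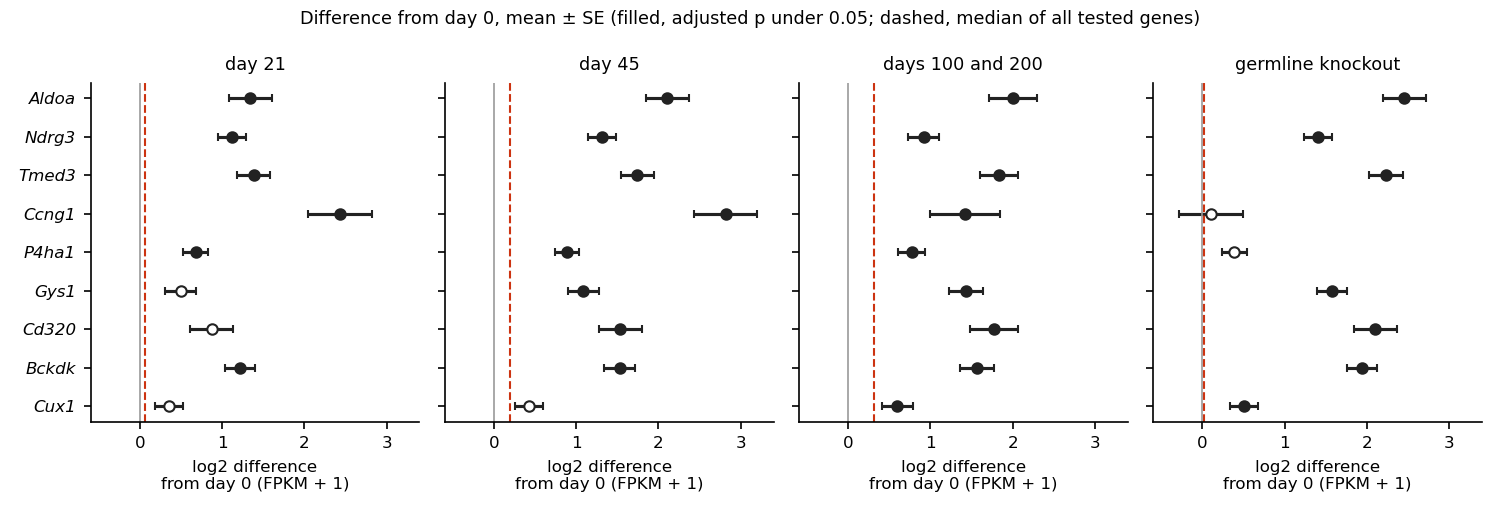
Difference from day 0 on the log2(FPKM + 1) scale with its standard error, for the 9 tested target genes in 4 comparisons. Filled points passed an adjusted p of 0.05, and the dashed line is the median of all 11354 tested genes. Ccng1 has the largest difference at days 21 and 45 (2.43 and 2.82) and a difference of 0.10 in the germline knockout.

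From day 21 to day 45, as miR-122 fell further, all 9 tested targets had a positive difference, as did 8510 of the 11354 tested genes. The median of the targets was 0.36, against 0.15 over all tested genes. None passed the limma test, in which 0.273% of tested genes were called higher, or 1 gene with the mouse letters as a block. At an unadjusted p under 0.05 there were 3, Aldoa (0.76 ± 0.26, adjusted p = 0.185), Gys1 (0.59 ± 0.19, adjusted p = 0.159) and Cd320 (0.66 ± 0.26, adjusted p = 0.239). At that unadjusted p, 1696 of the 11354 tested genes were higher and 115 lower. Every day 45 mouse was above every day 21 mouse for 7 of the 9, all but Ndrg3 and Cux1 (6 of 8 without Gys1), as for 27.9% of tested genes. None lay below without overlap, as 2.85% of tested genes did.

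From day 45 to the late mice, in which the miR-122 share was higher again, 5 of 9 differences were positive, beside 7813 of 11354 tested genes. None of the 9 passed the limma test (0.194% of tested genes were called higher and 0.0264% lower). Ccng1 was the only tested target at an unadjusted p under 0.05, where 170 tested genes were lower and 720 higher. Its difference was -1.40 ± 0.43 (adjusted p = 0.307, or 0.0132 after correction for GC content). Ndrg3 (-0.40 ± 0.19, adjusted p = 0.655) also lay below day 45 in both late mice, while Gys1 and Cd320 lay above it in both. Of all tested genes 7.59% lay below without overlap and 23.7% above. The small RNA library labelled day 200 had 19.1% of miR-122, and the labels do not say whether it came from the mouse of the RNA-seq library. For this time the paper reports a higher share, from more mice. The day 200 mouse of the RNA-seq was at 30.1 FPKM for Ccng1, 15.6 for Ndrg3 and 6.08 for P4ha1. It was within or above the range of the day 45 mice for 7 of the 10 genes.

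The germline knockout, with lifelong loss, was set against day 45, with recent loss. These groups also differed in line, and no vector was named for the knockout. The length of the loss, the vector, Cre and the line therefore cannot be told apart here. Ccng1 was called lower (-2.72 ± 0.38, adjusted p = 0.00192), with 8.23% of tested genes called lower and 1.21% higher. With library C alone its difference was -1.50, and it was still called lower. The groups did not overlap for Gys1, higher in the knockout (as 3.29% of tested genes were), or for Ccng1 and P4ha1, lower (20.6%). The other 8 tested targets were not called, and their adjusted p ran from 0.053 for P4ha1 to 0.771 for Cux1. Without library C, 5 targets were called higher (Aldoa, Tmed3, Gys1, Cd320 and Bckdk) and 2 lower (Ccng1 and P4ha1), where 14.6% of tested genes were called higher and 37.5% lower. In that setting, which holds only libraries A and B, the GC content of the 5 transcripts was 51.4 to 56.9% and that of the 2 was 40.8 and 45.7%. Ndrg3 and Cux1, which were not called, have 46.4 and 56.7%. With correction for GC content over all 3 libraries, Ccng1 had a difference of -2.01 and was called.

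Genes known to respond to p53 were counted beside Ccng1. Of 9 tested, 6 were called higher at day 21, 7 at day 45 and 5 in the late mice, beside 6.2%, 23.7% and 28.4% of all tested genes. Between day 45 and the germline knockout 5 were called lower in the knockout, beside 8.23%. Cdkn1a, Phlda3 and Eda2r, whose levels follow, had the largest rises of this list at day 21. Other genes of the list did not rise with them. Bbc3 differed from day 0 by -0.59 at day 21 (limma adjusted p = 0.167). Trp53inp1 differed by 0.18 at day 45 (adjusted p = 0.858) and Mdm2 by 0.18 in the late mice (adjusted p = 0.721). Cdkn1a, which encodes the cell cycle inhibitor p21, was at 2.00, 1.36 and 4.34 FPKM at day 0, 32.7, 54.9 and 69.3 at day 21, 44.7, 52.4 and 36.4 at day 45 and 17.5 and 19.9 in the late mice. Phlda3 was at 0.850 FPKM on average at day 0, 11.9 at day 21, 15.0 at day 45 and 2.32 in the germline knockout. Eda2r, a p53-induced receptor, was at 0.121, 3.74, 3.22 and 0.0783. Both were under 1 FPKM at day 0 and passed the minimum only through the other groups. Without these genes 4 of 7 were called higher at day 21, 5 at day 45 and 4 in the late mice, and 3 were called lower in the germline knockout than at day 45. Knockout mouse C, at 1.37 for Phlda3 and 0.195 for Eda2r, was below every day 45 mouse. In the germline knockout 3 of the 9 were called higher than day 0, beside 19.3% of all tested genes (2 of 7 without Eda2r and Phlda3), and Cdkn1a was at 47.0 and 47.2 in mice A and B and 10.1 in C. The part of a p53 response in the rise of Ccng1 was not tested.

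Markers of other liver cells were measured in the same libraries. Their counts stand beside 23.7% of all tested genes called higher at day 45 than at day 0, 3.21% called lower in the late mice than at day 0 and 8.23% called lower in the germline knockout than at day 45. Cholangiocyte markers summed to 50.6 to 65.8 FPKM at day 0, 143 to 208 at day 21, 415 to 1354 at day 45, 1945 to 2948 in the late mice and 564 to 833 in the germline knockout, and 6 of the 7 were called higher at day 45. Macrophage markers summed to 165 to 285 at day 0, 413 to 555 at day 21 and 584 to 694 at day 45 (9 of 9 tested called higher), and stellate cell and fibroblast markers to 141 to 192, 295 to 308 and 377 to 612 (9 of 10). Lymphocyte markers (9 of 10 called higher at day 45) went from 6.62 to 14.0 at day 0 to 31.9 to 42.7 at day 45, and endothelial markers (3 of 8) from 102 to 172 to 215 to 223. Endothelial markers summed to 95.6 to 115 in the germline knockout, with 5 of 8 called lower than at day 45, as were 3 of 9 macrophage, 2 of 10 lymphocyte, 2 of 10 stellate cell and fibroblast, and 2 of 5 proliferation markers. Hepatocyte markers summed to 43975 to 49905 at day 0, 38575 to 50875 at day 21, 31012 to 43144 at day 45, 23392 to 30891 in the late mice (3 of 14 tested called lower than day 0) and 37914 to 49338 in the germline knockout. Proliferation genes went from 7.73 to 15.5 to 22.9 to 34.8 (5 of 5 tested). Apart from Alb, no gene of these lists was at 0 in every library. Some of these markers were under 1 FPKM at day 0 and passed the minimum only through other groups. Without them the counts called higher at day 45 were 7 of 7 macrophage, 4 of 4 lymphocyte, 7 of 8 stellate cell and fibroblast, 4 of 5 cholangiocyte and 3 of 3 proliferation markers, and those called lower in the germline knockout than at day 45 were 3 of 7 macrophage, 1 of 4 lymphocyte and 1 of 3 proliferation markers. Knockout libraries A and B had macrophage sums of 486 to 654 and lymphocyte sums of 24.1 to 33.0, and library C stood apart at 228.5 and 15.8. The part of these cells in the levels of the target genes was not tested.

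The relatives and partners of the targets were taken as a list of 29 genes: paralogs, and proteins that work in the same pathway. Of the 27 tested, 2 were called higher at day 21, 4 higher and 2 lower at day 45, 3 higher and 2 lower in the late mice, and 3 higher and 7 lower in the germline knockout. Over all tested genes 6.2%, 23.7%, 28.4% and 19.3% were called higher and 1.42%, 2.99%, 3.21% and 14.5% lower in these comparisons. The median difference of the list was -0.09 at day 21 and -0.13 at day 45, beside 0.06 and 0.20 over all tested genes. None was called lower at day 21, when 3 were lower by limma at an unadjusted p under 0.05. With knockout library C alone the median difference of the list from day 0 was -0.05, beside -0.11 with all 3 knockout libraries.

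Paralogs could be set directly beside their targets. Aldoc, the aldolase known from brain, was at 10.96 FPKM at day 0 and 9.28 at day 45 (-0.18, adjusted p = 0.656), while Aldoa went from 68.2 to 303. Aldoc was at 17.8 in the germline knockout (0.67, adjusted p = 0.0498), a call lost with library C alone (0.29, adjusted p = 0.643) and after correction for GC content (adjusted p = 0.0894). Gys2 was at 62.5 FPKM at day 0, 115 at day 21, 58.3 at day 45 and 47.2 in the germline knockout, and none of these differences passed.

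Ndrg2, the most abundant Ndrg gene here, was at 863 and 723 FPKM at days 0 and 45 (-0.24, adjusted p = 0.384), and Ndrg1 at 17.5 and 13.0 (adjusted p = 0.741). Ndrg4 was under 1 FPKM in every group. Ccng2, which encodes cyclin G2, was at 6.38 FPKM at day 0 and 7.03 at day 45 (adjusted p = 0.761), and rose to 12.4 in the late mice (0.89, adjusted p = 0.0295). P4ha2 was at 3.57 and 3.22 (adjusted p = 0.67), P4ha3 was under 1 FPKM in every group, and P4hb, the partner subunit, was at 638 and 721 (adjusted p = 0.416). Cux2 was at 2.04 and 4.13 (adjusted p = 0.712).

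Slc7a2 and 2 Tmed genes were the paralogs called higher at day 45. Slc7a2 encodes CAT-2, the cationic amino acid transporter of adult liver, and went from 62.4 FPKM at day 0 to 154 at day 21 (1.29, adjusted p = 0.0061) and 121 at day 45 (0.95, adjusted p = 0.00769). In the germline knockout it was at 70.4 (0.16, adjusted p = 0.593). Of the p24 family, Tmed9 (0.54, adjusted p = 0.0489) and Tmed10 (0.38, adjusted p = 0.0295) rose at day 45. Tmed1, Tmed2, Tmed4, Tmed5 and Tmed7 had differences between -0.20 and 0.05 there, none of which passed. In the germline knockout Tmed5 (-1.71, adjusted p = 0.0206) and Tmed7 (-1.26, adjusted p = 0.0498) were called lower and Tmed9 (0.55, adjusted p = 0.0385) higher. With library C alone these differences were -0.29, 0.18 and 0.20. The call of Tmed9 was lost after correction for GC content (adjusted p = 0.176).

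**Figure D5:**
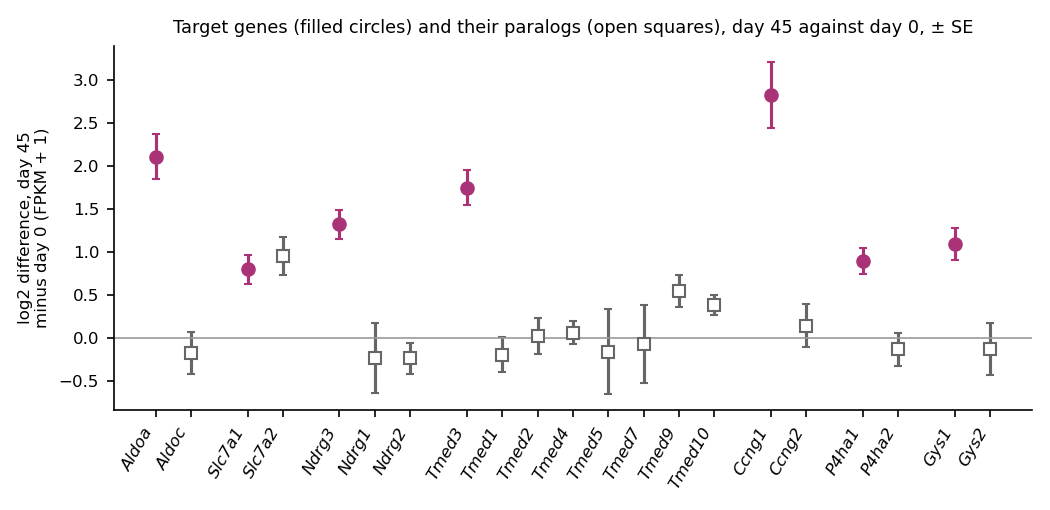
Log2 difference on log2(FPKM + 1) between day 45 and day 0, with its standard error, for 7 target genes (filled circles) and tested paralogs of theirs (open squares). Slc7a1 is from the fit over all genes with no minimum. Ccng1 and Aldoa lie at 2.82 and 2.11, their paralogs Ccng2 and Aldoc at 0.14 and -0.18, and Slc7a2 at 0.95 beside Slc7a1 at 0.79.

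Among the pathway partners, Gyg, which encodes the glycogenin that primes glycogen, went with Gys1. It was called higher in every comparison with day 0, by 0.60 (adjusted p = 0.024) at day 21, 0.88 (adjusted p = 0.00123) at day 45 and 0.82 (adjusted p = 0.00186) in the germline knockout, or 0.73 (adjusted p = 0.047) with library C alone. Pygl, the liver glycogen phosphorylase, fell by 0.74 (adjusted p = 0.0149) at day 45 and by 0.98 (adjusted p = 0.00406) in the germline knockout, a call lost with library C alone (-0.74, adjusted p = 0.127). Gbe1, the glycogen branching enzyme, was at 46.6 FPKM at day 0, 32.2 at day 45 (adjusted p = 0.329) and 12.1 in the germline knockout (-2.04, adjusted p = 0.00191, or -1.02 and 0.0556 with library C alone).

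Of the complex that Bckdk inhibits, Bckdha had no difference that passed (0.15 at day 45, adjusted p = 0.761). Bckdhb fell by 0.54 (adjusted p = 0.0304) at day 45. Dbt (-0.45, adjusted p = 0.527) and the phosphatase Ppm1k (-0.52, adjusted p = 0.297), which opposes Bckdk, were not called there. Dbt and Ppm1k were called lower in the germline knockout (-1.44 and -1.06), and neither was with library C alone (0.01, adjusted p = 0.993, and -0.17, adjusted p = 0.809). The call of Ppm1k was also lost after correction for GC content (adjusted p = 0.0883). Among partners of Cd320 in vitamin B12 handling, Tcn2 and Mmachc had no difference that passed, and Lmbrd1 was at 21.9 to 22.4 FPKM on average at days 0, 21, 45 and the late times and 11.7 in the germline knockout (-0.96, adjusted p = 0.017, or -0.16 and 0.582 with library C alone).

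A list of 40 other genes reported as miR-122 targets had 38 in the table and 36 tested. At day 21, 10 were called higher and none lower, at day 45 24 and none, in the late mice 26 and none, and in the germline knockout 19 higher and 1 lower (7 and 1 with library C alone). None was lower by limma at an unadjusted p under 0.05 at days 21, 45 and in the late mice. Over all tested genes 6.2%, 23.7%, 28.4% and 19.3% were called higher, and 4.03% with library C alone. The median difference of the list was 0.54, 0.90, 1.15 and 0.67, beside 0.06, 0.20, 0.31 and 0.02 over all tested genes. Agpat1, an enzyme of phospholipid and triglyceride synthesis, went from 4.65 FPKM at day 0 to 20.7 at day 21 (1.93, adjusted p = 0.00292), 34.7 at day 45 (2.67, adjusted p = 8.24e-05) and 40.6 in the germline knockout (2.83, adjusted p = 1.96e-05, or 2.24 and 0.00109 with library C alone). Gpx7, a peroxidase of the endoplasmic reticulum, went from 2.26 to 8.63, 19.6 and 31.7 FPKM, with the lowest knockout mouse at 17.5. Its difference in the germline knockout was 3.26 (adjusted p = 3.85e-05), or 2.53 (adjusted p = 0.00303) with library C alone.

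Ccl2, a monocyte chemoattractant that macrophages and other cells also make, went from 2.27 FPKM at day 0 to 11.99 at day 21 and 31.2 in the late mice (3.27, adjusted p = 0.000894). Sox4, a transcription factor, went from 0.524 to 13.0 in the late mice (3.12, adjusted p = 0.000282), and passed the minimum only through the groups where it is high. The markers of macrophages and cholangiocytes rose in the same mice, as given above, and their part in these levels was not tested. Slc35a4, a transporter-like protein, was at 6.58 FPKM at day 0 and 31.9 in the germline knockout (2.08, adjusted p = 1.96e-05, or 1.63 and 0.000352 with library C alone). Entpd4, an enzyme of the Golgi, was the single fall, from 21.5 to 12.1 in the germline knockout (-0.79, adjusted p = 0.00273, or -0.97 and 0.0136 with library C alone).

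Outside these lists, the 5 tested genes whose levels most resembled the mean standardised level of the 9 tested targets over the 14 libraries were Vipar, AU040320, Cdk16, Mast2 and Arhgef7, with Pearson r from 0.968 to 0.978. This is a description, since the libraries share their groups. Arhgef7 went from 5.13 FPKM at day 0 to 12.8 at day 21 and 18.1 at day 45. Among the targets themselves r over the 14 libraries ran from 0.01 for Ccng1 with Gys1 to 0.995 for Tmed3 with Bckdk.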

How the data were processed

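RNA-seq of 14 livers and small RNA sequencing of 11 livers were used. For RNA-seq the authors aligned paired poly-A reads with TopHat to mm9 and computed FPKM with Cufflinks 2.2.1, scaled to the upper quartile. The authors aligned small RNA reads with Bowtie 0.12.7 to miRBase and deposited RPM with 1 added to every value. From the RPM, 1 was subtracted and shares were taken. The 31 other sample columns of the microRNA table were not used.

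Rows with the same symbol were summed (224 symbols). The 11354 genes whose mean over the libraries reached 1 FPKM were tested with limma 3.58.1 (R 4.3.3) on log2(FPKM + 1), in 1 fit of 5 groups with days 100 and 200 joined, empirical Bayes with a trend, and Benjamini-Hochberg adjustment within each comparison at 0.05. The fit was tested on simulated data.

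The named genes were all 10 targets, relatives and partners, the 3 largest rises and falls among other reported targets in each comparison with day 0, and the 5 genes most like the targets. The members and lists were chosen with earlier results of these data known. GENCODE transcripts of the same build gave GC content (98.2% of tested genes). Between days 21 and 45 the deviations of same-letter libraries from their group means had r = 0.27, 0.24 and 0.50 for A, B and C. Library B of day 21 had r = 0.26 with library A of day 45. Between day 0 and the other groups r was 0.17 to 0.32 for letter A and negative for B and C. Alternatives were another added constant, no minimum or 5 FPKM, centring, fewer samples, no trend, a replicate block, the highest row of a symbol and each mouse left out, and, chosen after seeing the data, correction for GC content and knockout library C alone. A search of the targets for miR-122 sites, and the values of 1 gene counted among the relatives and partners, are not reported here. Reads per gene were not used, and p-values measure the spread between these mice.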

Additional observations from a re-analysis of the deposited data

Results flagged for a closer look

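In 7 of the genes named by the rule given above, and in others, the germline knockout was called different from day 45 by limma, tested directly between those groups. Of 9 tested targets 1 was called lower. Of 27 relatives and partners 2 were called higher and 3 lower, and of 36 other reported targets 2 were called lower. Over all tested genes 1.21% were called higher and 8.23% lower. For Ccng1 the difference was -2.72 (adjusted p = 0.00192), and mice A and B fell below day 0 while C did not. Among relatives and partners, Aldoc differed by 0.85, Slc7a2 by -0.79, Gbe1 by -1.52, Lmbrd1 by -0.99 and Bckdhb by 0.93, and of the other reported targets Entpd4 by -0.63. Adam17, another reported target, named after its values were seen, differed by -0.78 (adjusted p = 0.0301), a call lost with library C alone (-0.35, adjusted p = 0.353) and after correction for GC content (adjusted p = 0.129). The p53 response genes called lower numbered 5 of 9 tested, or 3 of 7 without Eda2r and Phlda3, beside 8.23% of all tested genes. With knockout library C alone, Ccng1 (-1.50), Bckdhb (1.15, adjusted p = 0.0245) and Entpd4 (-0.82, adjusted p = 0.045) stayed past the threshold, and Aldoc (0.47), Slc7a2 (-0.44), Gbe1 (-0.50) and Lmbrd1 (-0.19) did not. A group of 1 library has no spread of its own, so these p-values assume that it varies like the other groups. After correction for GC content Ccng1, Aldoc, Bckdhb and Entpd4 stayed past it. The part of library quality in these differences was not tested.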

How the results depend on the processing

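Of 1040 alternative values of single target genes, 969 kept direction and side of the threshold, 32 lost a call, 21 gained one and 18 changed sign. No called value changed sign.

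Counts of targets called in the comparisons with day 0 stayed within 1.5 times, except in the late mice. There, leaving out single libraries gave 5 to 8 in place of 9, with 13.7 to 24.5% of tested genes called higher. Under the other alternatives the day 21 count ran from 6 to 8 (Cd320 and Gys1 gained) and that of the germline knockout from 6 to 8. With replicates left out the counts ran from 4 to 6 at day 21, 8 to 9 at day 45 and 6 to 8 in the germline knockout. The shares of tested genes called higher then ran from 1.74 to 4.52%, 14.4 to 22.0% and 9.47 to 31.7%. The 8 in the germline knockout, without library C, were 7 called higher and 1 lower, Ccng1. From day 45 to the late mice, correction for GC content gave 1 call in place of 0, Ccng1. Between the germline knockout and day 45 the count of 1 became 0 when only those 2 groups were fitted (Ccng1, adjusted p = 0.0667), and ran from 1 to 7 with replicates left out, 7 being without knockout library C. The replicate block gave the same count of targets at day 21 (6), day 45 (8), day 45 against day 21 (0) and knockout against day 45 (1), and 6 in place of 7 in the germline knockout, where Cux1 was lost (adjusted p = 0.0779). The labels do not say that the letters pair mice, and same-letter libraries did not deviate together in every pair of groups.

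Signs changed for Ccng1 in the germline knockout against day 0, which ran from -0.50 (without library C) to 0.45 as single mice were left out. At day 45 against day 21, Cux1 was -0.067 when centred, ran from -0.0072 to 0.16 as mice were left out, and was -0.24 with correction for GC content, with or without the replicate block. In the late mice against day 45, Tmed3 was -0.010 and Bckdk -0.062 when centred, and Bckdk -0.026 with correction for GC content. As mice were left out, Aldoa ran from -0.20 to 0.11, P4ha1 from -0.28 to 0.043 and Bckdk from -0.013 to 0.10. In the germline knockout against day 45, library C alone gave -0.27 for Aldoa, -0.080 for Slc7a1, -0.0091 for Tmed3, -0.098 for Cd320 and -0.069 for Bckdk, while leaving out mice gave -0.033 to 0.23 for Ndrg3 and -0.011 to 0.15 for Cux1. The cause was not tested. Per 100 reads of all other microRNAs miR-122 stood at 206.4 at day 0, 4.66 at day 100 and 23.6 at day 200, and leaving out mice moved its mean share to 62.9 to 69.98% at day 0, 10.4 to 12.9% at day 21 and 0.645 to 1.07% at day 45.

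The filter left Slc7a1 untested. Days 100 and 200 are 1 mouse each, so a difference between them has no replicate check. The deposited FPKM hold no counts, which limits what can be said of the lowest genes.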
